A study of Mus musculus with 9 samples.

Results

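The genes described here take glucose into the cell, break it down to pyruvate and lactate, and store it as and release it from glycogen. They are a list of 35 genes by name, with no value in the rule that defines it, and 34 of them have a row among the 22851 genes counted. Txnip was not analysed here. Of the 34, 33 passed the filter on low counts in all comparisons, and the muscle glycogen phosphorylase Pygm did not.

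RNA of the heart was sequenced in 9 libraries from male C57BL/6J mice aged 6 to 8 weeks at the start, 3 of each group. CK mice received citrate buffer. DCM mice received a single injection of streptozotocin at 180 mg/kg, which destroys the insulin-producing cells of the pancreas, and were kept for 12 weeks. SPM mice received the same streptozotocin and also the polyamine spermine at 1 mg/kg, daily for 2 weeks before it and every other day for the 12 weeks after it. All mice were fasted overnight before the heart was taken. No group received spermine without streptozotocin, so 3 comparisons can be made (DCM/CK, SPM/DCM and SPM/CK), any 2 of which share 1 group of libraries. The methods give 3 mice per group in one place and pools of 6 hearts in another, so a library may be 1 animal or several, and p-values measure only the spread between these libraries.

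Total counts lay between 29901300 and 39718680 per library, and mitochondrial genes took 13.7% to 16.2% of them in CK. In DCM the share was 15.5% to 18.9%, and it was 21.01% to 21.09% in the SPM libraries. The extraction protocol in the labels speaks of retinas, whereas the tissue label is heart. The 7 ventricular cardiomyocyte markers counted summed to 41073 to 55139 normalized CPM (counts scaled by library total and TMM factor over the 9 libraries), and the 8 retina markers counted summed to 0.584 to 1.93. SPM replicate 2 stands apart in another way. It lay between SPM replicates 1 and 3 for 66.3% of 14909 genes, against 15.6% to 38.7% for any other library within its group, and for 29 of the 33 glucose and glycogen genes tested. Of the 2656 genes at 0 in SPM replicates 1 and 3, it had counts for 30, where the other libraries had counts for 485 to 1162 of such genes. Its independence from the other SPM libraries is therefore in doubt, and calls of these genes that use SPM are given with and without it.

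Cardiac muscle takes up glucose through GLUT4 (Slc2a4), which moves to the cell surface under insulin, and through GLUT1 (Slc2a1), which does not need insulin. Hexokinase traps glucose as glucose 6-phosphate, phosphofructokinase commits it to glycolysis, and fructose 2,6-bisphosphate, made by the bifunctional PFKFB enzymes, is the strongest activator of that step. Pyruvate is either reduced to lactate or carried into the mitochondrion by the pyruvate carrier MPC1/MPC2, and glucose 6-phosphate can also be stored as glycogen. The healthy adult heart burns mainly fatty acids and keeps glucose as a flexible second fuel.

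The level of a gene per unit of length is given as the deposited FPKM, averaged over the 9 libraries unless a group is named. Aldoa, the muscle aldolase, stood highest at 1396 FPKM and was followed by Ldhb, the heart-type lactate dehydrogenase, at 1338, and by Eno3, the muscle enolase, at 918. Muscle phosphoglycerate mutase Pgam2 (692), triosephosphate isomerase Tpi1 (577), Ldha (486), pyruvate kinase Pkm (476), muscle phosphofructokinase Pfkm (455) and brain-type glycogen phosphorylase Pygb (415) came next. Among the carriers, Slc2a4 stood at 110.0 FPKM and Slc2a1 at 2.997. The 4 PFKFB genes were low, from 7.94 for Pfkfb3 and 3.92 for Pfkfb1 to 0.265 for Pfkfb2, and the lactate exporter Slc16a3 stood at 1.26. The 34 genes took 1.33% of all counts in each SPM library, 1.47% to 1.71% in DCM libraries and 1.49% to 1.61% in CK libraries.

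**Figure D1:**
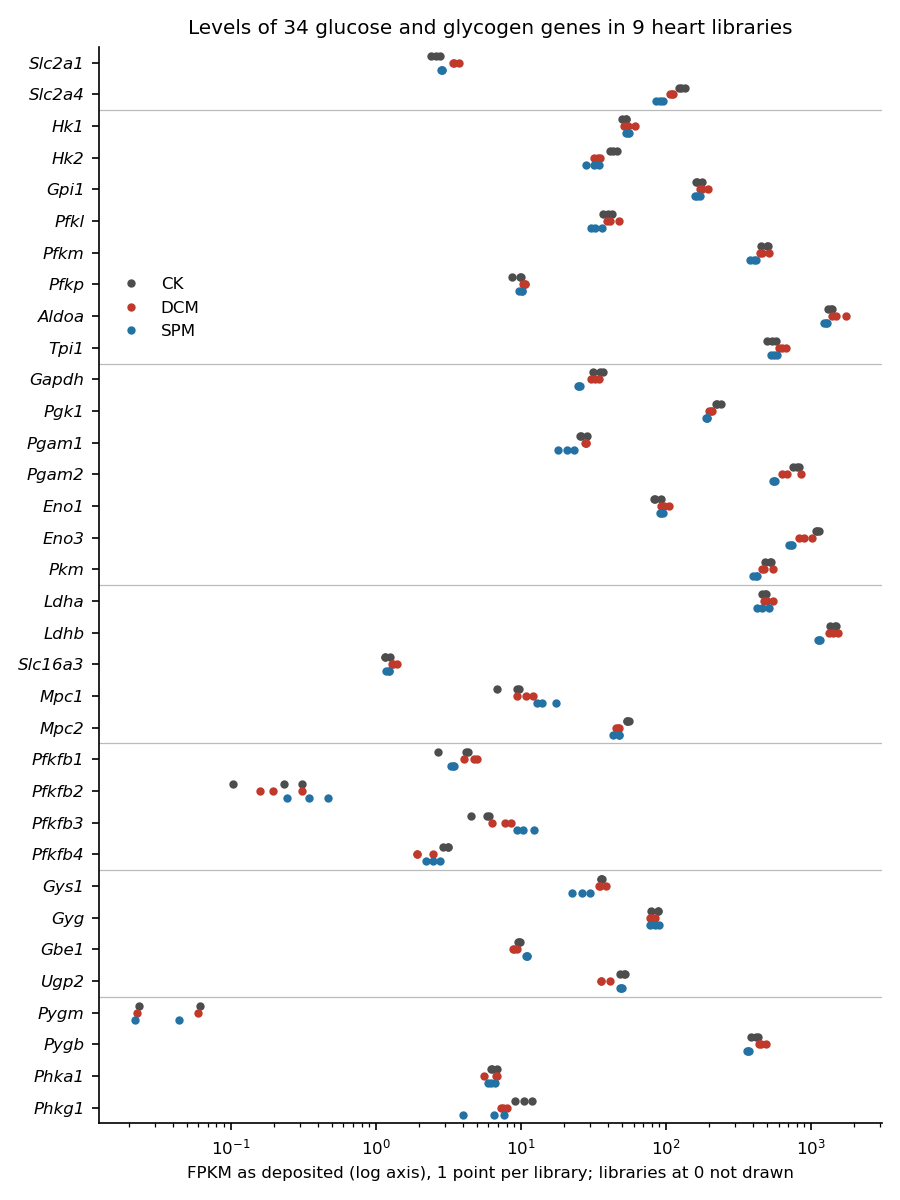
Deposited FPKM (log axis) of the 34 genes counted, 1 point per library, in CK (grey), DCM (red) and SPM (blue), with lines between the functional groups; libraries at 0 are not drawn. Levels run from 1396 FPKM on average for Aldoa to 0.0259 for Pygm, and differences between genes are far larger than differences between groups.

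Genes were called at an adjusted p below 0.05 (edgeR quasi-likelihood test, Benjamini-Hochberg adjustment over all genes tested), with and without a fold change of at least 1.5. In DCM compared to CK, 4 of the 33 genes rose (12.1%) and 3 fell (9.09%), by 1.20-fold to 1.48-fold, while 5.28% of all 14402 genes tested were called higher and 5.11% lower. Slc2a1, Pfkfb3, Tpi1 and Eno1 rose, and Hk2, Ugp2 and Phkg1 fell. None of the 33 passed the 1.5-fold limit by edgeR, none by DESeq2, and none reached it at an unadjusted p below 0.05, while 2.03% of all genes were called higher and 2.31% lower with that limit. The median log2 fold change of the 33 genes was 0.09, and that of all genes was -0.00. Limma was run on log2 of FPKM, which are scaled by the total count of each library and not by TMM. It called 1 gene higher and 6 lower, and the median of the 33 was -0.00. Over all 14402 genes it called 479 higher and 1156 lower, with a median of -0.09. The number of calls also rested on single libraries, since 5 genes were called without CK replicate 1, 1 without CK replicate 2, 4 each without CK replicate 3 and without DCM replicate 1, and 3 each without DCM replicate 2 and without DCM replicate 3. Pfkfb3 was the gene called in all 6 of these fits. Calls over all genes fell as well, from 761 higher and 736 lower to between 424 and 703 higher and between 393 and 679 lower.

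In SPM compared to DCM, 4 genes rose (12.1%, against 8.87% of all 14493 genes tested) and 10 fell (30.3%, against 7.76%). Ugp2, Gbe1, Mpc1 and Pfkfb3 rose by 1.22-fold to 1.42-fold. Gys1, Pfkfb1, Pgam1, Pfkl, Pgam2, Gapdh, Eno3, Ldhb, Pygb and Slc2a4 fell by 1.21-fold to 1.36-fold. None passed the 1.5-fold limit by edgeR or DESeq2 or reached it at an unadjusted p below 0.05, while 2.70% of all genes were called higher and 0.890% lower with that limit. The median log2 fold change of the 33 genes was -0.14, and that of all genes was 0.01. These calls do not hold without SPM replicate 2: edgeR then called none of the 33, with 16 at an unadjusted p below 0.05, where it called 0.486% of all 14828 genes tested, against 16.6% with all 6 libraries. The adjusted p of the 14 genes rose to between 0.0668 and 0.148 while their log2 fold changes stayed between 0.28 and 0.55 for the 4 and between -0.45 and -0.27 for the 10. Without DCM replicate 2, which held the highest of the 3 DCM values for 24 of the 33 genes, edgeR also called none, with 19 at an unadjusted p below 0.05, and 1.29% of all genes. Without DCM replicate 1 it called 3, with 423 genes higher and 328 lower over all genes. Without SPM replicate 1 it called 7, with 1014 higher and 845 lower over all genes. DESeq2 on all 6 libraries called 17, with 1456 and 1326 over all genes, against 1286 and 1124 by edgeR.

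In SPM compared to CK, 4 genes rose (12.1%, against 13.0% of all 14574 genes tested) and 10 fell (30.3%, against 14.3%). With the 1.5-fold limit, Pfkfb3 and Mpc1 rose and Phkg1 fell, where 5.08% of all genes were called higher and 4.12% lower. Without SPM replicate 2, 6 of the 14 calls remained, namely Pfkfb3 and Mpc1 higher and Slc2a4, Pgam2, Gapdh and Eno3 lower, and the calls over all genes went from 27.4% to 10.4%. The median log2 fold change of the 33 genes was -0.06, and that of all genes was 0.00. With limma on log2 of FPKM 2 were higher and 14 lower, and with a correction for GC content 6 were higher and 6 lower.

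**Figure D2:**
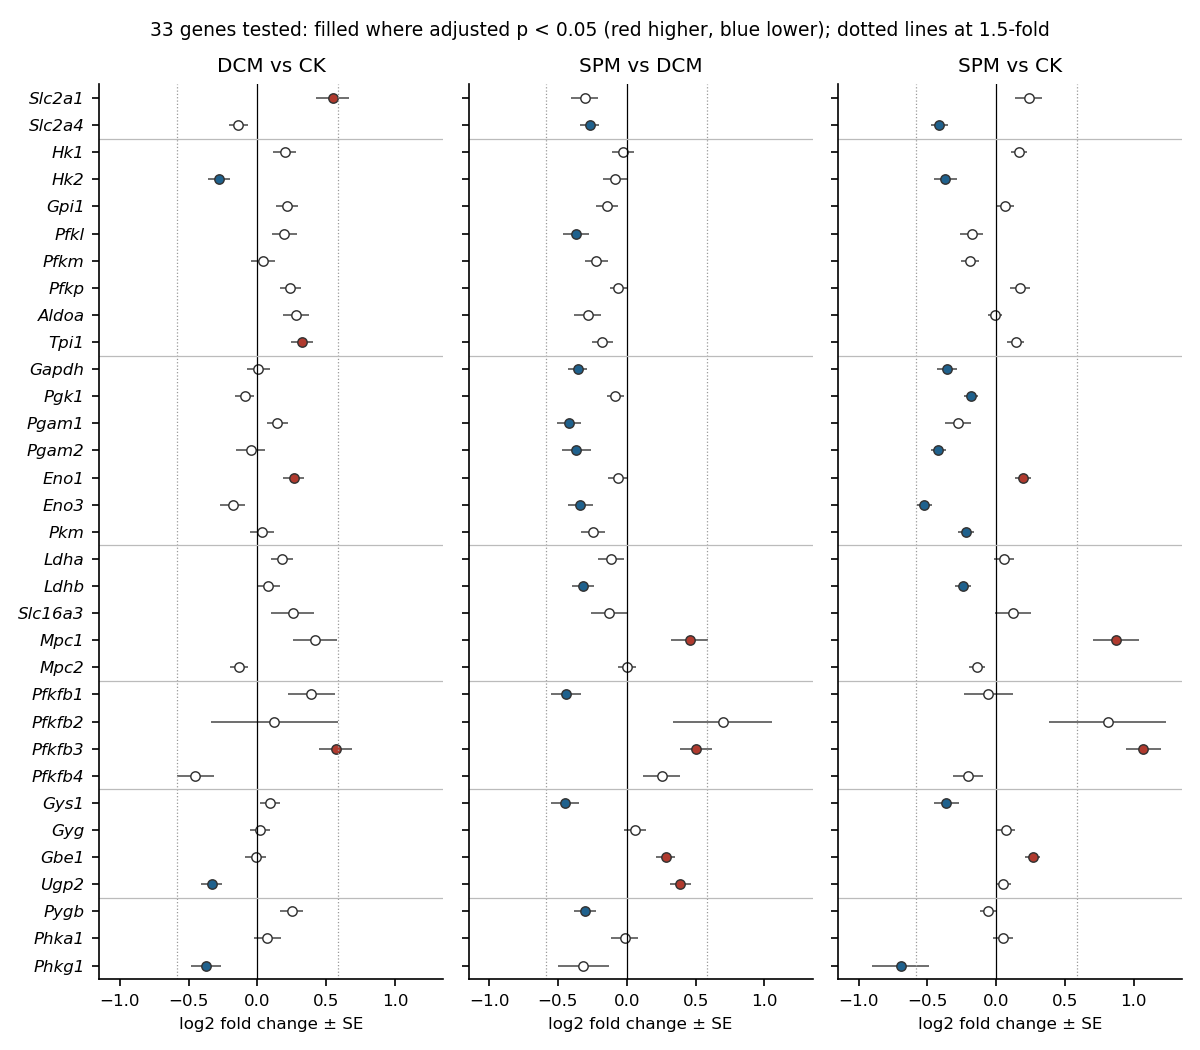
Log2 fold change with its standard error (edgeR) of the 33 genes tested in DCM against CK, SPM against DCM and SPM against CK (3 libraries per group), ordered by function from glucose entry at the top to glycogen breakdown at the bottom; filled points passed an adjusted p of 0.05 and dotted lines mark 1.5-fold. Only Pfkfb3 and Mpc1 (higher) and Phkg1 (lower), all in SPM against CK, are filled and beyond the dotted lines.

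Pfkfb3, Mpc1 and Phkg1 are annotated at chr2:11471433-11554077, chr17:8282904-8297661 and chr5:129863421-129898549 (GENCODE M21, GRCm38). The 250 bases before each annotated RefSeq start of these genes (GRCm38.p6) are shown because these are the only 3 of the 33 genes past both limits in any comparison. They are written 5′ to 3′ on the strand of the gene. Capitals mark the E-box CACGTG, the hypoxia-type core ACGTG and the GC box GGGCGG on either strand, so that the complement of the GC box reads CCGCCC, and every CACGTG also holds ACGTG on both strands.
Pfkfb3 promoter, chr2:11502091-11502340, minus strand: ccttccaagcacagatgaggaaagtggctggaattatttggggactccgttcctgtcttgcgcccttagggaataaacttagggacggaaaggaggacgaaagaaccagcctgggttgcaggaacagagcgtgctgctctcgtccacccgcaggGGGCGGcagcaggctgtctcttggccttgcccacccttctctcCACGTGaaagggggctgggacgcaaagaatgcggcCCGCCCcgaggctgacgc
Pfkfb3 promoter, chr2:11553930-11554179, minus strand: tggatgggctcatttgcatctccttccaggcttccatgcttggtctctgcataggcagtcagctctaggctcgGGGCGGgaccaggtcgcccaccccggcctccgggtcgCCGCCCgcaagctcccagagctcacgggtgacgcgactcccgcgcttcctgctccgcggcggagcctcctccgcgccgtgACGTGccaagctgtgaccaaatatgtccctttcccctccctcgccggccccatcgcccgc
Mpc1 promoter, chr17:8283537-8283786, plus strand: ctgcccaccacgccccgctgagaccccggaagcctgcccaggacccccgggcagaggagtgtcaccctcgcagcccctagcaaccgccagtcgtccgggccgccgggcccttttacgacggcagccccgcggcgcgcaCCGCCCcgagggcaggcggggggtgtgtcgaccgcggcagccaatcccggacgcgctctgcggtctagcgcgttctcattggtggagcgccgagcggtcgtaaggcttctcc
Mpc1 promoter, chr17:8284204-8284453, plus strand: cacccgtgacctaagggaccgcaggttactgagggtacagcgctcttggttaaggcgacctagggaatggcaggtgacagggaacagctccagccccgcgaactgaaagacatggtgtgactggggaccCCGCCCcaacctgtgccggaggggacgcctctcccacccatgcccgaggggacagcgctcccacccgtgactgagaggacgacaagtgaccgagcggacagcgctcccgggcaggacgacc
Phkg1 promoter, chr5:129879089-129879338, minus strand: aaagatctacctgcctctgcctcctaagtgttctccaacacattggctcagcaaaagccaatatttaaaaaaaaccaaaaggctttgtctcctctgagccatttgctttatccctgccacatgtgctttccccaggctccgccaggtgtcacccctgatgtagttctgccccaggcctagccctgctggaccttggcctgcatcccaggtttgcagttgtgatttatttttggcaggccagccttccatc
The first of the Pfkfb3 promoters holds a CACGTG that begins 53 bases before the start and 2 GC boxes, and the other holds an ACGTG that begins 60 bases before the start and 2 GC boxes. Each of the Mpc1 promoters holds 1 GC box, and the Phkg1 promoter holds none of the motifs. Over all 32851 promoters of the same length, 6.02% hold CACGTG, 16.6% ACGTG and 32.7% GGGCGG. Of the 52 promoters of the 34 genes, 4 hold CACGTG (7.69%), 18 ACGTG (34.6%) and 27 GGGCGG (51.9%). A match describes letters only and not the binding of a factor.

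Pfkfb3 encodes the PFKFB enzyme with the strongest kinase activity, which makes fructose 2,6-bisphosphate. Its normalized CPM was 26.8, 27.4 and 21.1 in CK, 41.4, 31.8 and 38.4 in DCM, and 61.1, 51.0 and 46.5 in SPM. The 3 groups did not overlap, with CK lowest and SPM highest. Pfkfb3 rose in DCM compared to CK by 0.57 ± 0.12 (log2 fold change ± SE, adjusted p = 0.0101), with a range of 0.46 to 0.67 when each library was left out. Against CK it rose in SPM 2.10-fold (log2 1.07 ± 0.13, adjusted p = 0.00126, and 0.00662 without SPM replicate 2). Against DCM it rose in SPM by 0.51 ± 0.12 (adjusted p = 0.0216), a call that is lost without SPM replicate 2 (0.53, adjusted p = 0.0668).

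Summed markers of neutrophils and of endothelial cells were highest in SPM, as Pfkfb3 was, and those of macrophages lowest in DCM. The 11 neutrophil markers summed to 8.21 to 28.9 normalized CPM in the CK libraries, 16.8 to 33.5 in those of DCM and 36.1 to 69.2 in those of SPM, with Elane and Mpo at 3 counts or fewer in every library, and 7 of the 8 tested rose in SPM compared to CK. The highest CK sum holds Ltf at 16.9 normalized CPM in CK replicate 2, and without Ltf, which was at most 0.616 elsewhere, CK ran from 8.14 to 15.4 and DCM from 16.6 to 33.5. The 11 macrophage markers summed to 811 to 1073 in the CK libraries, 680 to 802 in those of DCM and 812 to 1368 in those of SPM. In DCM compared to CK 6 of the 11 macrophage markers fell and 1 rose, and in SPM compared to DCM 7 rose. Over all genes 5.11% fell and 5.28% rose in DCM compared to CK. In SPM 8.87% rose compared to DCM, and 13.0% rose and 14.3% fell compared to CK. Marker calls that use SPM are not given without SPM replicate 2. Over all genes 0.486% were called without it in SPM compared to DCM and 10.4% in SPM compared to CK. Their part in the values of Pfkfb3 was not tested, and in heart tissue a change in the number of cells of a type cannot be told apart from a change in the RNA of each cell.

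The other 3 PFKFB genes did not follow one pattern. Pfkfb1, the liver and muscle isoform, stood at 9.63 ± 2.39 normalized CPM in CK (SD, n = 3), 12.6 ± 1.26 in DCM and 9.31 ± 0.249 in SPM, and it fell by 0.44 ± 0.11 on the log2 scale in SPM compared to DCM (adjusted p = 0.0242, and 0.114 without SPM replicate 2). It is one of the 3 genes whose call in that comparison held under the GC correction, at -0.58 (adjusted p = 0.0241). Pfkfb4 stood at 10.3, 7.496 and 8.96 normalized CPM on average in CK, DCM and SPM and did not pass (DCM compared to CK, log2 -0.45 ± 0.13, adjusted p = 0.0525). Pfkfb2, the heart isoform by textbook accounts, was barely counted, with 1.34, 1.00 and 0.454 normalized CPM in CK, 0.880, 1.46 and 0.733 in DCM, and 2.19, 1.61 and 1.14 in SPM. These are 14 to 71 counts per library, and the groups overlap. Of its 50-base windows 26.1% also occur in the overlapping gene Gm29427, so its counts are uncertain.

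At glucose entry, Slc2a1 rose in DCM and Slc2a4 was lowest in SPM. Slc2a1 was 8.61, 8.04 and 7.59 normalized CPM in CK, 11.3, 11.6 and 12.5 in DCM, and 9.70, 9.56 and 9.38 in SPM. Every DCM library lay above every SPM library, and every SPM library above every CK library. Slc2a1 rose in DCM compared to CK 1.46-fold (log2 0.55 ± 0.12, adjusted p = 0.0129), and the call was lost without CK replicate 2 (adjusted p = 0.0514) and without DCM replicate 3 (0.0522). The log2 fold change in SPM compared to DCM was -0.31 ± 0.10 (adjusted p = 0.0544).

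Slc2a4 was 415, 376 and 392.2 normalized CPM in CK, 359, 364 and 352 in DCM, and 283, 297 and 311 in SPM. The groups did not overlap and ran from CK down to SPM. The log2 fold change of -0.14 ± 0.07 in DCM compared to CK did not pass (adjusted p = 0.254, and 0.0402 by limma on FPKM). Slc2a4 fell in SPM compared to CK by 0.41 ± 0.06 on the log2 scale (adjusted p = 0.00264, and 0.0206 without SPM replicate 2), and this call held under all 16 alternatives. Against DCM it fell in SPM by 0.27 ± 0.07 (adjusted p = 0.0257), and without SPM replicate 2 the adjusted p was 0.144.

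Of the hexokinases, which trap glucose in the cell, Hk2 changed. Hk1, the broadly expressed form, was 218, 203 and 220.2 normalized CPM in CK, 235, 274 and 228 in DCM, and 234, 242 and 246 in SPM, and it passed in none of the comparisons. Hk2, the insulin-regulated muscle form (36.3 FPKM), was 226, 215 and 248 in CK, 176, 201 and 191 in DCM, and 160.4, 181 and 195 in SPM. All CK values of Hk2 lay above those of both diabetic groups, which overlapped each other. Hk2 fell in DCM compared to CK by 0.28 ± 0.08 on the log2 scale (adjusted p = 0.0429), which was past the limit in 5 of 15 alternatives, and in SPM compared to CK by 0.37 ± 0.08 (adjusted p = 0.0139, and 0.0576 without SPM replicate 2).

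Of the other 6 genes of upper glycolysis, Tpi1, which interconverts the triose phosphates, rose in DCM compared to CK from 830 ± 57.4 to 1039 ± 66.8 normalized CPM (SD, n = 3; 1.25-fold, adjusted p = 0.0239). Pfkl, the liver-type phosphofructokinase, at 38.6 FPKM on average, fell in SPM compared to DCM from 163 ± 18.6 to 126 ± 11.1 normalized CPM (log2 -0.37 ± 0.09, adjusted p = 0.0297, and 0.1204 without SPM replicate 2). Gpi1, Pfkm, Pfkp and Aldoa passed in no comparison. Aldoa had log2 fold changes of 0.28 in DCM compared to CK (adjusted p = 0.0854) and -0.28 in SPM compared to DCM (adjusted p = 0.0669), and DCM replicate 2, at 2822 normalized CPM, stood above the other DCM values of 2324 and 2220. All 8 log2 fold changes of this group were below 0 in SPM compared to DCM, from -0.37 to -0.03. Of the 8, 1 passed (12.5%), against 7.76% of all genes called lower. Under the GC correction Hk1 stood at 0.11 and the others below 0, and Pfkl did not pass (-0.22, adjusted p = 0.160).

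In lower glycolysis, from glyceraldehyde 3-phosphate to pyruvate, 1 of 7 genes rose in DCM compared to CK, 4 of 7 fell in SPM compared to DCM, and 5 fell and 1 rose in SPM compared to CK. Over all genes 5.28% rose in the first comparison, 7.76% fell in the next, and 14.3% fell and 13.0% rose in the last. Without SPM replicate 2, 0 of the 4 falls against DCM and 3 of the 5 against CK were called, and the rise was not. Under a correction for GC content 1 of the 4 and 3 of the 5 were called, and the rise was too. Eno3, the muscle enolase, stood at 1662 ± 70.2 normalized CPM in CK, 1466 ± 168 in DCM and 1161 ± 23.6 in SPM. It fell in SPM compared to CK by 0.52 ± 0.05 on the log2 scale (adjusted p = 0.000865, and 0.00837 without SPM replicate 2) and in SPM compared to DCM by 0.34 ± 0.09 (adjusted p = 0.0324, and 0.138 without SPM replicate 2). Pgam2, the muscle mutase, stood at 641 ± 37.0, 619 ± 105 and 480.5 ± 7.14 in the same order. It fell in SPM compared to CK by 0.42 ± 0.06 (adjusted p = 0.0019, and 0.0174 without SPM replicate 2) and in SPM compared to DCM by 0.37 ± 0.11 (adjusted p = 0.0432, and 0.145 without it).

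Eno1, the broadly expressed enolase, at 92.8 FPKM on average, rose in DCM compared to CK 1.20-fold (adjusted p = 0.0493) and in SPM compared to CK 1.14-fold (adjusted p = 0.0399, and 0.152 without SPM replicate 2), while Eno3 fell in the latter. The rise of Eno1 in DCM compared to CK was past the limit in 1 of 6 fits with a library left out, and so was that in SPM compared to CK. Pgam1, the non-muscle mutase, at 25.2 FPKM, fell in SPM compared to DCM by 0.42 ± 0.09 (adjusted p = 0.0169, and 0.0759 without SPM replicate 2). Gapdh, at 30.9 FPKM, fell in SPM compared to DCM by 0.36 ± 0.07 (adjusted p = 0.015, and 0.079 without SPM replicate 2) and by the same 0.36 ± 0.07 in SPM compared to CK (adjusted p = 0.00893, and 0.0489 without it). Pkm and Pgk1 fell in SPM compared to CK by 0.22 ± 0.06 and 0.18 ± 0.05, and both calls were lost without SPM replicate 2 (adjusted p = 0.117 and 0.161).

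Several of these genes share sequence with other genes of GENCODE M21, so their counts are uncertain. The share of their 50-base windows that also occurs in another gene was 72.2% for Eno1 (Eno1b) and 68.0% for Pgk1 (Pgk1-rs7). It was 41.5% for Pgam1, 34.4% for Pkm, 29.6% for Mpc1 (the pseudogene Mpc1-ps) and 27.8% for Gapdh. For Ldhb it was 27.0% (Gm5514), for Ldha 16.6%, for Aldoa 13.5% and for Tpi1 7.51%. A gene in brackets is that with the most shared windows. The Gapdh row had 2580 to 4262 counts per library, whereas its processed pseudogene Gm7336 had 11124 to 17784, and reads from the shared windows cannot be told apart. Gm7336 fell in SPM compared to DCM by 0.39 ± 0.12 on the log2 scale (adjusted p = 0.0454, and 0.142 without SPM replicate 2), close to the value of the Gapdh row. The level of 30.9 FPKM given for Gapdh is uncertain for the same reason.

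Markers of skeletal muscle, which shares Eno3, Pgam2, Pfkm and Phkg1 with the heart, were low in all libraries. The 10 counted summed to 25.4 to 46.5 normalized CPM in the CK libraries, 16.7 to 19.8 in those of DCM and 15.5 to 16.6 in those of SPM. Most of each sum was Mybpc2. This gene stood at 41.2, 20.0 and 35.5 in CK, 11.8, 16.3 and 12.3 in DCM, and 10.3, 12.0 and 12.2 in SPM. Myh1 and Myh2 were at 3 counts or fewer, while Eno3 alone exceeded 1136 in every library. The erythroid markers, from cells that live on glycolysis, summed to 1543 to 3624 in the CK libraries, 1330 to 3285 in those of DCM and 760 to 1296 in those of SPM over the 6 counted, and 5 of 5 tested fell in SPM compared to CK. The ventricular cardiomyocyte markers summed to 48225 to 53919 in the CK libraries, 47305 to 55139 in those of DCM and 41073 to 45762 in those of SPM, and 3 of 7 fell and 1 rose in SPM compared to CK. Of the 7 fibroblast markers counted, 5 fell in DCM compared to CK. The sums were 2018 to 2117 in the CK libraries, 1362 to 1457 in those of DCM and 1618 to 1689 in those of SPM. In SPM compared to CK, Col1a1, Col1a2, Col3a1 and Postn fell, and Dcn and Pdgfra rose. Dcn stood at 774 on average in DCM and 992 in SPM, and Col1a1 at 110 and 97.8. Of the liver markers, 4 of 5 tested rose in SPM compared to DCM. Among them Apoh, at 0.0339 to 0.126 in DCM and 0.488 to 7.79 in SPM, could pass the low-count filter through SPM alone. The 8 liver markers counted summed to 339, 169.95 and 31.0 in the SPM libraries, and to 14.5 to 47.7 in the other libraries. Albumin (Alb) was at 248, 113 and 0.293 in the SPM libraries. Over all genes 14.3% fell and 13.0% rose in SPM compared to CK. In DCM compared to CK 5.11% fell, and in SPM compared to DCM 8.87% rose. These marker calls too are not given without SPM replicate 2. The part of these cells in the changes of the glycolytic genes was not tested.

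At the end of glycolysis, Ldhb, which favours lactate use, stood at 1800 ± 113 normalized CPM in CK, 1901 ± 155 in DCM and 1529 ± 20.1 in SPM. It fell in SPM compared to DCM by 0.32 ± 0.08 on the log2 scale (adjusted p = 0.028, and 0.142 without SPM replicate 2) and in SPM compared to CK by 0.24 ± 0.06 (adjusted p = 0.0165, and 0.0888 without it). Ldha and the lactate exporter Slc16a3 passed in no comparison, with log2 fold changes from -0.13 to 0.26.

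Mpc1, a subunit of the mitochondrial pyruvate carrier, was 6.25, 8.82 and 8.79 normalized CPM in CK, 10.5, 9.41 and 12.0 in DCM, and 17.3, 12.8 and 13.8 in SPM. The 3 groups did not overlap. Mpc1 rose 1.83-fold in SPM compared to CK (log2 0.87 ± 0.16, adjusted p = 0.00668, and 0.0162 without SPM replicate 2), a call that held under all 16 alternatives. It rose by 0.46 ± 0.13 in SPM compared to DCM (adjusted p = 0.0434, and 0.0798 without SPM replicate 2), and its value of 0.42 ± 0.16 in DCM compared to CK did not pass (adjusted p = 0.124). Its partner Mpc2, at 49.2 FPKM against 11.4 for Mpc1, stood at 210 ± 2.46, 191 ± 5.16 and 191 ± 9.75 normalized CPM in CK, DCM and SPM and passed in no comparison. The Mpc1 row held 196 to 561 counts per library, with 29.6% of its windows shared as given above, and 23.1% of its exon bases overlap the transcript 4930506C21Rik, so the strand of the reads could matter.

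**Figure D3:**
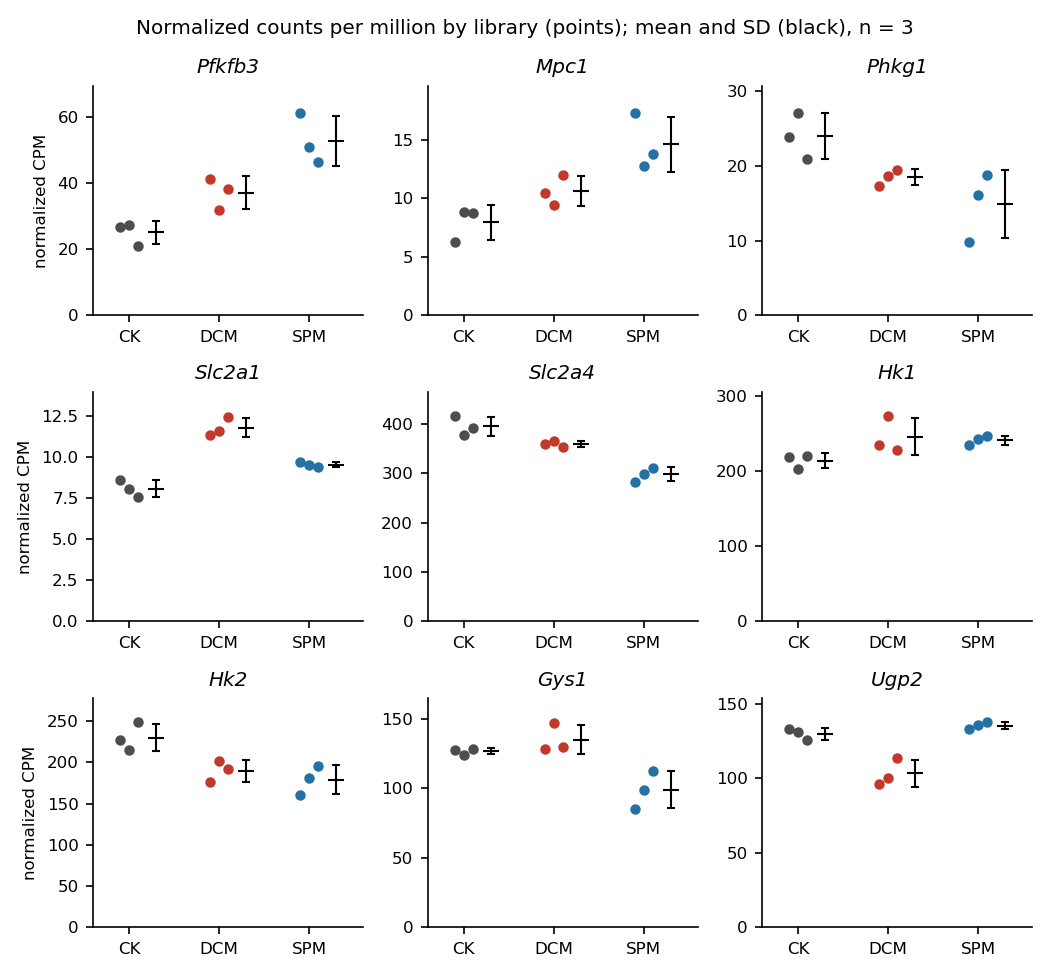
Normalized CPM in each library (points, axes from 0) of 9 genes in CK (grey), DCM (red) and SPM (blue), with the group mean and SD in black (n = 3). Pfkfb3 and Mpc1 run from CK up to SPM and Slc2a4 from CK down to SPM without overlap, Slc2a1 is highest in DCM, and Ugp2 is lowest in DCM, at 103 ± 9.08 against 130 ± 4.06 in CK and 135 ± 2.34 in SPM.

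Of the glycogen synthesis genes, Ugp2, which makes UDP-glucose, was lowest in DCM without a GC correction. With a level of 45.8 FPKM, it was 133, 131 and 125 normalized CPM in CK, 96.1, 100.1 and 113 in DCM, and 133, 136 and 137 in SPM. All DCM values lay below those of both other groups, and CK and SPM overlapped. Ugp2 fell by 0.33 ± 0.08 on the log2 scale in DCM compared to CK (adjusted p = 0.0171) and rose by 0.39 ± 0.07 in SPM compared to DCM (adjusted p = 0.0133, and 0.0668 without SPM replicate 2). The same DCM libraries serve both comparisons, so the opposite signs are not independent. The fall in DCM compared to CK was past the limit in 3 of 6 fits with a library left out. With 39.1% GC, Ugp2 has the lowest GC content of the 33 genes, and its rise in SPM compared to DCM was 0.02 under the GC correction (adjusted p = 0.929). Under that correction the value in DCM compared to CK was -0.31 (adjusted p = 0.0811), and that in SPM compared to CK was -0.29 (adjusted p = 0.0587).

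Gys1, the muscle glycogen synthase (32.8 FPKM), was 128, 124 and 128 normalized CPM in CK, 128, 147 and 130 in DCM, and 85.5, 99.1 and 113 in SPM. Every SPM value lay below every value of the other groups. Gys1 fell in SPM compared to DCM by 0.45 ± 0.10 on the log2 scale (adjusted p = 0.0201, and 0.0796 without SPM replicate 2) and in SPM compared to CK by 0.36 ± 0.09 (adjusted p = 0.0225, and 0.0835 without it). Gbe1, the branching enzyme (9.95 FPKM), stood at 34.9 ± 0.201 normalized CPM in CK, 34.6 ± 1.59 in DCM and 42.1 ± 0.511 in SPM. It rose by 0.28 ± 0.07 in SPM compared to DCM (adjusted p = 0.0234), and without SPM replicate 2 the adjusted p was 0.134 and under the GC correction its value was 0.02. Gyg, the glycogenin primer, passed in no comparison.

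Of the glycogen phosphorylases, Pygb had the highest level, at 415 FPKM, against 3.30 for the liver form Pygl, which is not among the 35 genes. Pygm had 0, 6 and 2 counts in CK, 0, 2 and 6 in DCM, and 0, 2 and 4 in SPM, where a count of 0 allows up to 3, and its share of the summed FPKM of Pygb and Pygm was at most 0.016% in any library. Of the 50-base windows of Pygm 0.460% occur in Pygb. The cause of the low counts of Pygm was not tested. Pygb stood at 1547 ± 106 normalized CPM in CK, 1838 ± 138 in DCM and 1489 ± 18.1 in SPM, and it fell in SPM compared to DCM by 0.30 ± 0.08 on the log2 scale (adjusted p = 0.0289, and 0.148 without SPM replicate 2). Its value of 0.25 ± 0.08 in DCM compared to CK did not pass (adjusted p = 0.0832).

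Phkg1, the catalytic subunit of muscle phosphorylase kinase (8.11 FPKM), was 23.9, 27.0 and 20.96 normalized CPM in CK, 17.4, 18.7 and 19.5 in DCM, and 9.85, 16.1 and 18.8 in SPM. All CK values lay above those of both diabetic groups, and SPM spread over a wider range than DCM and overlapped it. Phkg1 fell in DCM compared to CK by 0.37 ± 0.11 on the log2 scale (adjusted p = 0.0433), past the limit in 7 of 15 alternatives. Against CK it fell in SPM 1.62-fold (log2 -0.70 ± 0.21, adjusted p = 0.0371), and without SPM replicate 2 the adjusted p was 0.0807. Of its 50-base windows 25.0% also occur in other genes, 137 in number, of which the overlapping Sumf2 shares the most. Phka1, a regulatory subunit, passed in no comparison, with log2 fold changes from -0.02 to 0.07.

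Within gene families, the share of one member in the summed FPKM does not depend on scaling between libraries. Slc2a4 made up 98.0% ± 0.0964 of the 2 carriers in CK (SD, n = 3), 96.9% ± 0.196 in DCM and 96.9% ± 0.191 in SPM. Hk2 made up 44.6%, 45.2% and 46.7% of the hexokinase pair in CK, 36.8%, 36.4% and 39.5% in DCM, and 34.7%, 36.7% and 38.2% in SPM. The CK values stood above all others by several points. The share of Hk2 was lower in DCM than in CK by 7.94 percentage points and in SPM than in CK by 8.96 points (two-sided exact permutation test, p = 0.1 each, the smallest that 3 against 3 libraries allow), and SPM and DCM differed by 1.02 points (exact p = 0.5).

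Eno3 made up 92.7% ± 0.534 of the enolase pair in CK, 90.3% ± 0.344 in DCM and 88.6% ± 0.447 in SPM, without overlap between groups (exact p = 0.1 for each comparison). Ldhb made up 75.0% ± 0.532, 73.7% ± 0.129 and 71.0% ± 1.72 of the lactate dehydrogenases in the same order, again without overlap (exact p = 0.1 for each). Pfkm held 90.8% ± 0.327, 89.9% ± 0.124 and 90.3% ± 0.258 of the phosphofructokinases, and Pgam2 held 96.7% ± 0.0884, 96.2% ± 0.515 and 96.4% ± 0.371 of the mutases. The 3 groups of Pgam2 overlapped (exact p = 0.3 to 0.5). The shares of Eno3, Pgam2 and Ldhb carry the uncertain counts of Eno1, Pgam1, Ldha and Ldhb. Without SPM replicate 2 the SPM mean of each of these shares moved by at most 0.125 points, and Hk2, Eno3 and Ldhb still lay below all CK values. This is no independent check, since replicate 2 lay between the other SPM values and could hardly move them. With 2 SPM libraries the exact test cannot reach p = 0.1.

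**Figure D4:**
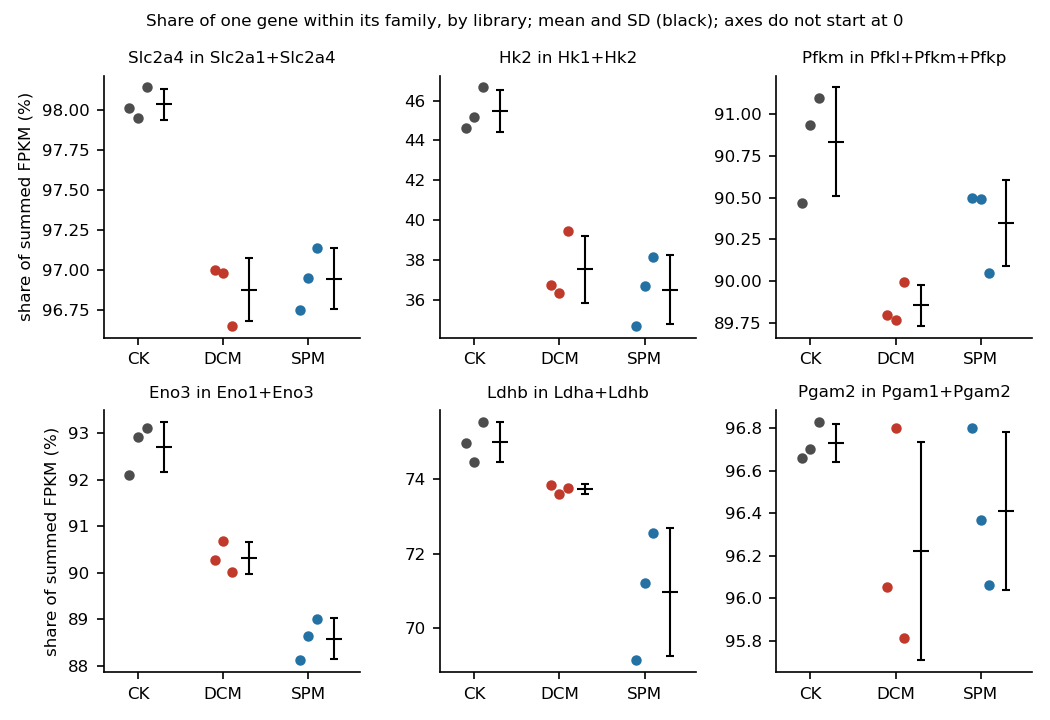
Share of one gene in the summed FPKM of its family (percent), by library, with the group mean and SD in black (n = 3); the axes do not start at 0. Slc2a4, Hk2, Eno3 and Ldhb are highest in all 3 CK libraries, and for Hk2 the drop from CK (45.5% on average) to DCM (37.5%) is the largest in points of the 6 families drawn.

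GC content moved with the differences of SPM from DCM. Over the 14484 genes tested with a GC value the log2 fold change and GC content had a Spearman correlation of -0.50, against 0.06 in DCM compared to CK and -0.37 in SPM compared to CK, across genes, which are not independent. The 4 genes that rose in SPM compared to DCM had a median GC content of 45.2% (39.1% to 50.2%), and the 10 that fell had 54.5% (45.6% to 57.1%), where the median over all genes with a GC value was 49.2%. With the trend on GC content removed from each library, 3 of the 14 calls were left in SPM compared to DCM, namely Pfkfb3 higher and Pfkfb1 and Gapdh lower, while over all genes 1.24% were called higher and 1.83% lower, against 8.87% and 7.76% without it. In DCM compared to CK, where GC content hardly moved with the differences, 9 genes were called under the same correction, 7 higher and 2 lower, with 7.41% of all genes higher and 5.64% lower.

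**Figure D5:**
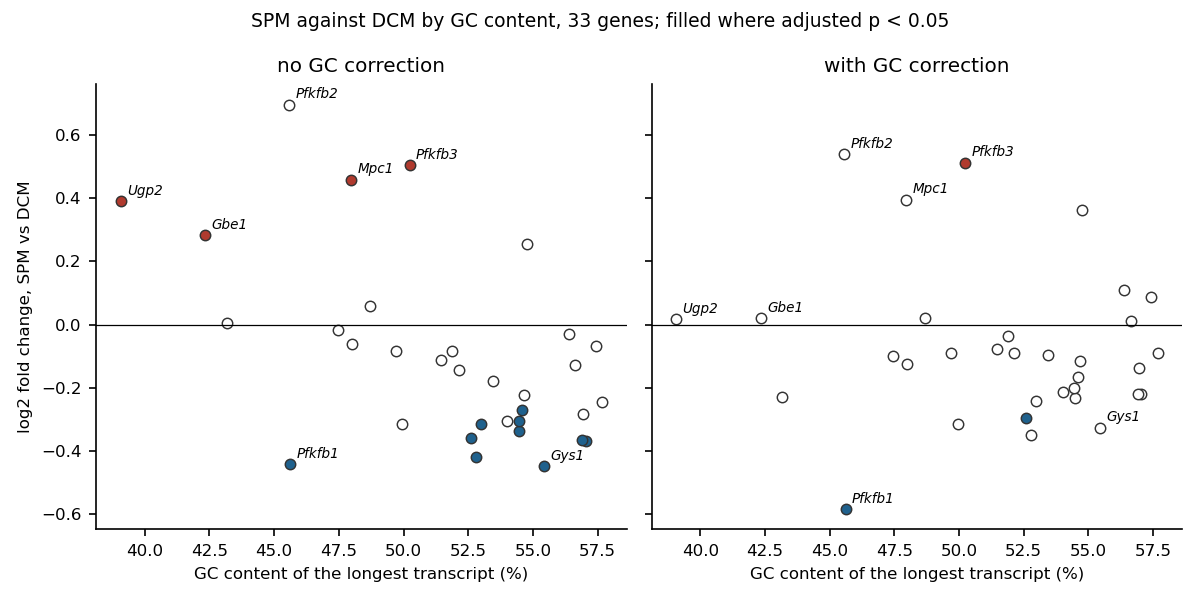
Log2 fold change of the 33 genes in SPM against DCM by the GC content of the longest transcript (percent), without (left) and with (right) the GC correction; filled points passed an adjusted p of 0.05. On the left the genes with the highest GC contents lie below 0 except Pfkfb4; on the right Ugp2 and Gbe1, at the lowest GC contents, sit at 0.02 each and 3 points remain filled.

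The other genes of these pathways were read from lists of 98 genes, 91 of which were counted. In DCM compared to CK, 8 of 84 tested rose (9.52%) and 3 fell (3.57%), shares to be read against the 5.28% and 5.11% of all genes. Fbp2 and Gpd1 were among those past the 1.5-fold limit. Fbp2, the muscle fructose bisphosphatase, was 38.4, 42.6 and 42.7 normalized CPM in CK, 69.2, 76.6 and 65.3 in DCM, and 71.4, 64.8 and 62.8 in SPM. Both diabetic groups lay above CK and overlapped each other. Fbp2 rose 1.71-fold in DCM compared to CK (log2 0.77 ± 0.08, adjusted p = 0.000129) and 1.60-fold in SPM compared to CK (adjusted p = 0.0011, and 0.00726 without SPM replicate 2). Gpd1, the cytosolic glycerol 3-phosphate dehydrogenase, rose 1.64-fold from a low level (5.17 to 8.505 normalized CPM, adjusted p = 0.0206). Both genes tested of the polyol and fructose list, Sord and Khk, rose, by 0.51 ± 0.09 and 0.49 ± 0.09 on the log2 scale (adjusted p = 0.00322 and 0.00469).

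In SPM compared to DCM, 5 of 83 genes of these lists rose (6.02%) and 11 fell (13.3%), against 8.87% and 7.76% of all genes, and 1 fell past the 1.5-fold limit (0.890% of all genes). Without SPM replicate 2, 0 of 84 rose and 1 fell, and under the GC correction 0 of 83 rose and 2 fell. Pcx, pyruvate carboxylase, was 57.5, 55.1 and 60.0 normalized CPM in CK, 38.9, 57.6 and 45.9 in DCM, and 25.6, 28.3 and 29.92 in SPM. DCM replicate 2 lay within the CK values, and all SPM values lay below all others. Pcx fell by 0.76 ± 0.13 on the log2 scale in SPM compared to DCM (adjusted p = 0.0107, and 0.0492 without SPM replicate 2) and 2.06-fold in SPM compared to CK (log2 -1.05 ± 0.08, adjusted p = 0.00036, and 0.00292 without it). It passed under all 16 alternatives in both comparisons. Against CK, 13 of the 83 rose in SPM and 13 fell (15.7% each), against 13.0% and 14.3% of all genes, and without SPM replicate 2, 6 of 84 rose and 4 fell, against 5.26% and 5.10%.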

How the data were processed

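RNA was measured in 9 heart libraries, grouped as CK, DCM and SPM by their labels. The authors deposited whole-number counts per gene for reads filtered with fastp, and FPKM values per library. The FPKM equal the count divided by the library total and by 1 length per gene (largest relative deviation 8.6e-13), and that length is that of the longest GENCODE M21 transcript for 97.7% of 22820 genes. The submitters' processing notes list Bowtie 0.12.2 and the builds mm8 and mm9 without a role, and a counting tool or strand setting is not given in the sources used here. Gene names come from GENCODE M21, and 31 of 22851 identifiers stayed unnamed.

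For each pair of groups, glmQLFTest of edgeR 4.0.16 (R 4.3.3) was run on the 6 libraries after filterByExpr and TMM scaling, which keeps totals of 29901300 to 39718680 counts comparable. Genes were called at an adjusted p (Benjamini-Hochberg) of 0.05 and, as in the study, a fold change of 1.5. The standard error is the log2 fold change divided by the square root of F. Shares of FPKM were compared by an exact permutation test in Python 3.11.15 with scipy 1.17.1. Steps were tested on simulated data. Of 50 genes changed 1.3-fold, 26% were called in DCM/CK, 32% in SPM/DCM and 36% in SPM/CK. At 1.5-fold the shares were 60%, 62% and 62%, so a gene that did not pass is not shown to be unchanged. Promoters are the 250 bases upstream of RefSeq starts.

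Alternatives were RLE scaling, DESeq2 1.42.0, other low-count filters, all 9 libraries in one fit, limma 3.58.1 on log2 of FPKM plus 0.1, a replicate block, a GC correction (lowess span 0.3) and each library left out. The fit of 8 libraries without SPM replicate 2 was added after the data were seen. Members, lists and tests were chosen with earlier results of these data known. Values per library are given for genes past both limits in any comparison and for Slc2a1, Slc2a4, Hk1, Hk2, Pfkfb2, Gys1 and Pygm; Ugp2, Aldoa, Fbp2 and Pcx were added after their values were seen. The level and fold change are given for members past adjusted p in DCM compared to CK or SPM compared to DCM, and genes of the other lists are named where past both limits there, except for a result that is not reported here. Sord and Khk were named after their values were seen. Txnip, also in this rule, was not analysed here.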

Additional observations from a re-analysis of the deposited data

How the results depend on the processing

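In DCM compared to CK, 7 genes were called at adjusted p, and the other settings gave 11 by DESeq2 and 11 without a low-count filter, 3 with the replicate block and 4 with the block and the GC correction. Leaving out 1 library gave 1 to 5. Over all genes the calls were 761 higher and 736 lower, 938 and 870 by DESeq2, and 1002 and 1083 without a low-count filter. They were 654 and 648 with the block and 902 and 704 with the block and the GC correction. Of the 33 genes, 0 were called with the 1.5-fold limit. That count was 1 under the GC correction, 1 with the GC correction and the block (Pfkfb3 in both), and 0 to 2 with a library left out. In SPM compared to DCM, 14 genes were called, 9 by limma on FPKM, 3 under the GC correction, 5 with the GC correction and the block, and 0 to 14 with a library left out. Over all genes the calls were 1286 higher and 1124 lower, 744 and 1016 by limma, and 179 and 265 under the GC correction. They were 394 and 506 with the GC correction and the block. Of the 33 genes, none was called with the 1.5-fold limit under any setting run. The fit of 8 libraries without SPM replicate 2 gave 0 calls in SPM compared to DCM, with 18 genes at an unadjusted p below 0.05, and 8 against 14 in SPM compared to CK. In SPM compared to CK, leaving out 1 library gave 6 to 14, and 2 or 3 with the 1.5-fold limit, where Phkg1 was lost in 5 of 6 such fits.

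The replicate numbers did not pair the libraries. Residuals of libraries with the same number correlated at -0.0746 to 0.205, and those with other numbers at -0.284 to 0.217. With the replicate block 15 genes were called in SPM compared to DCM and 14 in SPM compared to CK. Counts by the other settings stayed within 1.5 times of the main count. Genes of few counts such as Pfkfb2 and Pygm allow no statement on differences between groups at this depth.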
